A study of Mus musculus with 5 samples.

Results

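Heme and iron handling was followed through 10 genes chosen by symbol: Slc48a1, Hmox1, Blvra, Blvrb, Fth1, Ftl1, Slc40a1, Tfrc, Slc11a1 and Slc11a2. All 10 had a row among the 21289 genes of the count table, and all 10 were abundant enough to be tested. The libraries were made from macrophages carrying CD45 and CD64, which flow cytometry isolated 7 days after myocardial infarction (MI) from the hearts of male wild-type C57BL/6JGpt mice. Curcumol, a plant sesquiterpene, had been given by gavage at 30 mg/kg, daily for 7 days, for 3 of the samples (MI + curcumol), and 2 samples came from infarcted mice without it (MI). All groups share the infarct and the sort, and no uninfarcted heart was analysed here. Whether a sample is a single mouse or a pool is not given, so the tests speak for the variation among these libraries, part of which may be technical.

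Macrophages take up dying cells and free hemoglobin and break down their heme. Heme enters the cytosol from the phagolysosome through the transporter HRG1 (Slc48a1), heme oxygenase 1 (Hmox1) opens the ring and frees iron, carbon monoxide and biliverdin, and biliverdin reductases (Blvra, Blvrb) make bilirubin. The iron is stored in shells of ferritin heavy and light chains (Fth1, Ftl1) or leaves through ferroportin (Slc40a1). Iron also enters with transferrin through the transferrin receptor (Tfrc), and NRAMP1 (Slc11a1) and DMT1 (Slc11a2) carry metal ions out of phagosomes and endosomes. C57BL/6 mice are known for a loss-of-function allele of Slc11a1.

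Several of these messages are themselves read by iron. Iron regulatory proteins bind hairpins called iron-responsive elements: bound before the coding sequence they block translation, and bound behind it they stabilise the message, so the transcript level measured here reports on the second kind of control and not on the first. The elements are shown because they divide the genes into these kinds. A search of GENCODE M21 coding transcripts (GRCm38), on the transcript strand, asked for the loop CAGTGN closed by a stem of 5 base pairs, G with T allowed, with a C just before the stem. Each line gives 30 bases with the 6 bases of the loop in capitals and T standing for U.
Fth1, 5′ UTR, chr19:9982732-9982761, plus strand: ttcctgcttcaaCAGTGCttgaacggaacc
Ftl1, 5′ UTR, chr7:45459778-45459807, minus strand: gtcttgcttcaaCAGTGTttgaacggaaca
Slc40a1, 5′ UTR, chr1:45925464-45925493, minus strand: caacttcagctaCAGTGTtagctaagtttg
Tfrc, 3′ UTR, chr16:32631219-32631248, plus strand: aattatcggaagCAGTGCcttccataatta
Tfrc, 3′ UTR, chr16:32631598-32631627, plus strand: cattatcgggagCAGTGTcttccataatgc
Tfrc, 3′ UTR, chr16:32631663-32631692, plus strand: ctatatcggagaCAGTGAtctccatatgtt
Tfrc, 3′ UTR, chr16:32631710-32631739, plus strand: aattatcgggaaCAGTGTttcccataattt
Slc11a2, 3′ UTR, chr15:100395152-100395181, minus strand: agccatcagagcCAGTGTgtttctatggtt
The Slc11a2 element, in the longest coding transcript of that gene, paired at 4 of 5 stem positions, and the others paired at all 5. The full stem was found in the longest coding transcript of 4 of the 10 genes and of 1.56% of 12438 tested genes. With 4 pairs it was found in 6 of the 10, Slc11a1 included by a match inside its coding sequence, and in 11.5% of genes. A match describes letters and was not tested for binding.

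Libraries held 39768705 to 43315822 counts. Levels are given as CPM, counts scaled to the library total. The libraries differed in breadth: 17078 to 18501 genes had a count in the curcumol libraries, against 12243 and 12915 in the untreated ones. Of 10 macrophage and gate markers 5 were positive and 5 negative, none passed, and their summed level was 31528 to 34776 CPM with curcumol and 34260 and 35603 CPM without. Within the list Ptprc, Csf1r, Itgam and Mertk were separated higher with curcumol, and Cd68 and Cd14 lower. Ptprc, which encodes CD45, stood at 451, 489 and 318 CPM with curcumol and at 293 and 244 CPM without. Fcgr1, which encodes CD64, stood at 335, 321 and 267 CPM with curcumol and at 318 and 350 CPM without, and the macrophage lysozyme Lyz2 at 21973 to 24599 and at 22769 and 24446 CPM. Each log2 fold change, with its SE, sets curcumol over untreated in edgeR's quasi-likelihood fit with TMM scaling. TMM factors were 1.02 to 1.07 with curcumol and 0.911 and 0.939 without, so a gene with similar CPM in both groups has a slightly negative fitted difference. At an adjusted p under 0.05 the test called 30 of 14508 genes, or 0.207%, with 10 higher (0.0689%) and 20 lower (0.138%) with curcumol. That number was 0 without curcumol replicate 2, 1 without curcumol replicate 1, and 2950 or 3531 without untreated replicate 1 or 2.

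None of the 10 heme and iron genes passed this test. At an unadjusted p under 0.05 there were 2, Hmox1 and Ftl1, both lower with curcumol (20% of the members, against 24.6% of all tested genes, of which 6.51% lower and 18.1% higher). DESeq2 and limma-voom each called those same 2, against 16.8% and 11.4% of all genes to which they gave an adjusted p. Curcumol and untreated libraries did not overlap for 4 of the 10, Hmox1 and Ftl1 lower and Blvrb and Tfrc higher, while 45.9% of all tested genes showed such a separation, 36.6% upward and 9.31% downward. The median log2 fold change of the 10 was -0.21, with 7 negative and 3 positive, beside 0.15 over all tested genes, of which 57.1% were positive. Over the 4398 tested genes with an average log2 CPM of at least 5 the median was -0.099, which is nearer to that of the 10. With total counts as the scaling the medians of the 10 and of all tested genes moved up, to -0.02 and 0.34, and 5 of the 10 were then positive. The gap between these medians was -0.35 under either scaling, because rescaling shifts all genes by nearly the same amount. The gap was -0.66 without untreated replicate 2, -0.21 without curcumol replicate 2, -0.52 with limma-voom and -0.53 with the replicate block. The members' own median was -0.07 without untreated replicate 1 and -0.37 without untreated replicate 2.

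**Figure D1:**
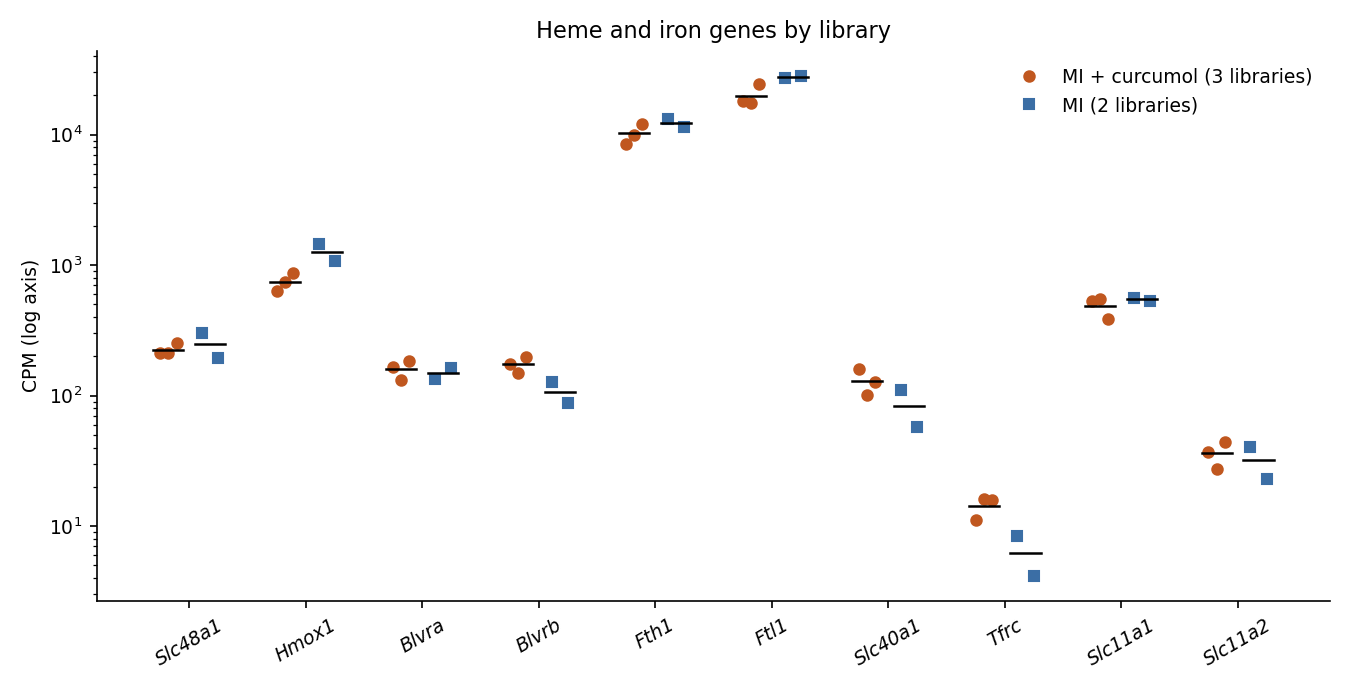
CPM (log axis) of the 10 heme and iron genes in each library; circles are the 3 curcumol libraries, squares the 2 untreated ones and black bars group means. Hmox1 and Ftl1 circles lie below both squares, Blvrb and Tfrc circles above both, and the other 6 genes overlap.

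The genes spanned 4 orders of size. Per kilobase of longest coding transcript (RPKM), the order over the 5 libraries was Ftl1 at 18014 to 29238, Fth1 at 5699 to 8775, Hmox1 at 404 to 925, Slc11a1 at 168 to 243, Blvrb at 84.8 to 193, Blvra at 113 to 160, Slc48a1 at 77.0 to 119, Slc40a1 at 17.1 to 47.9, Slc11a2 at 5.22 to 10.04 and Tfrc at 0.849 to 3.30. Slc11a1, Blvrb, Blvra and Slc48a1 each overlapped their neighbour in this order, and the other neighbours were separated. The order depends on the length used. For Slc40a1 the longest coding transcript had 3370 bases, while the median length of its coding transcripts was 429.5. The ferritin chains alone took 2.67%, 2.74% and 3.64% of all counts in the curcumol libraries and 4.03% and 3.97% in the untreated ones. Wilson 95% intervals on these shares were at most 0.00608 percentage points to either side, which covers counting error only. Tfrc varied most, 3.89-fold between its highest and lowest library, and Blvra least, 1.42-fold.

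On the heme side, the transcript of heme oxygenase 1 was the member with the smallest p. Hmox1 (NCBI gene 15368) stood at 634, 739 and 864 CPM in the curcumol libraries and at 1451 and 1085 CPM in the untreated libraries. Every curcumol library lay below both untreated ones. The means were 746 ± 115 CPM with curcumol and 1268 ± 258 CPM without (SD, n = 3 and 2), and the log2 fold change was -0.96 ± 0.20 (95% interval -1.45 to -0.47, adjusted p = 0.0659). DESeq2 (adjusted p = 0.000575), limma-voom (0.0306) and the fit without untreated replicate 2 (0.0120) called it, and over all 12 alternatives the adjusted p ranged from 0.000575 to 0.205 and the log2 fold change from -1.15 to -0.71. Hmox2, the constitutive heme oxygenase, stood at 189, 148 and 161 CPM with curcumol and at 183 and 153 CPM without, so its groups overlapped. In bulk samples, fewer cells that carry a transcript and less of it per cell cannot be told apart, here and below.

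The steps before and after heme oxygenase gave overlapping or higher values with curcumol. Slc48a1, the heme transporter of the phagolysosome, stood at 212, 211 and 253 CPM with curcumol and at 301 and 195 CPM without (log2 fold change -0.33 ± 0.23, adjusted p = 0.436). The untreated libraries enclosed all 3 curcumol libraries, and without untreated replicate 1 the difference was 0.04. Blvra, which reduces biliverdin IX-alpha, the product of heme oxygenase, stood at 167, 131 and 185 CPM with curcumol and at 135 and 164 CPM without (-0.08 ± 0.20, adjusted p = 0.873). Its sign depended on the scaling, at 0.11 with total counts. Blvrb, the flavin reductase that acts on other biliverdin isomers, stood at 175, 149 and 198 CPM with curcumol and at 127 and 87.2 CPM without. Its groups did not overlap, but the difference of 0.51 ± 0.23 did not pass (adjusted p = 0.246), and it was 0.83 without untreated replicate 1 and 0.26 without untreated replicate 2.

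**Figure D2:**
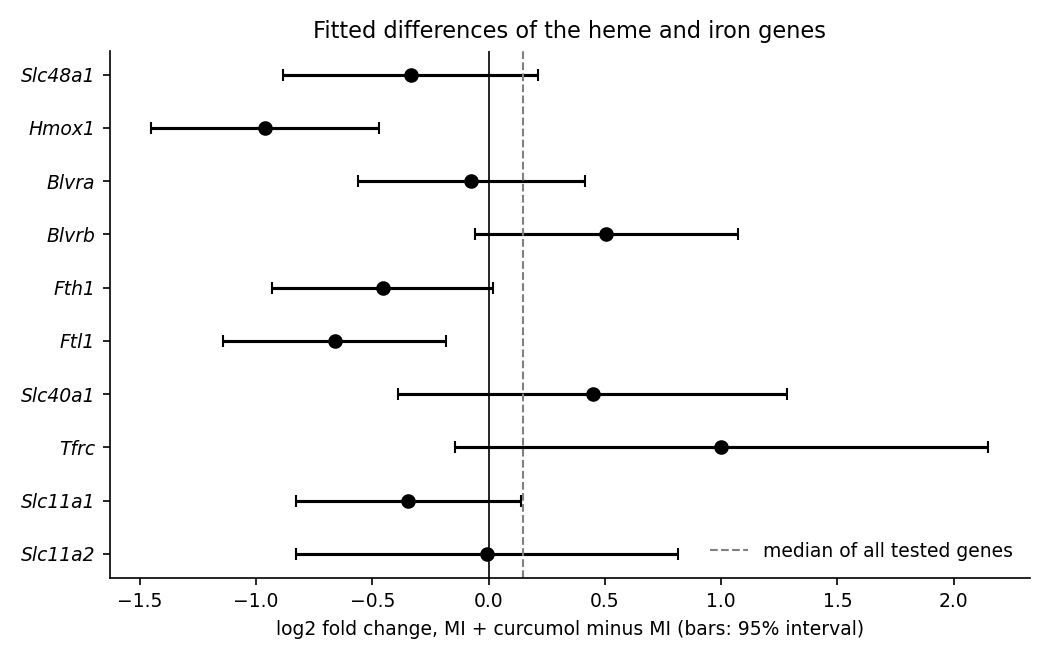
Fitted log2 fold change of each gene, curcumol minus untreated, with its 95% interval; the dashed line is the median of all tested genes at 0.15. The intervals of Hmox1 and Ftl1 lie below 0, and those of the other 8 genes include 0.

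Of the ferritin chains the light chain was the one with separated groups. Ftl1 (NCBI gene 14325) stood at 18168, 17438 and 24290 CPM with curcumol and at 27146 and 28302 CPM without. All curcumol libraries lay below both untreated ones, with replicate 3 nearest to them. The log2 fold change was -0.66 ± 0.20 (95% interval -1.14 to -0.19, adjusted p = 0.0972); DESeq2 (adjusted p = 0.0103) and limma-voom (0.0417) called it, and over the 12 alternatives the adjusted p ranged from 0.0103 to 0.327. Fth1 (NCBI gene 14319), the chain that oxidises iron for storage, stood at 8515, 9994 and 12143 CPM with curcumol and at 13110 and 11394 CPM without. Curcumol replicate 3 lay between the untreated libraries, and the difference of -0.46 ± 0.20 did not pass (adjusted p = 0.219). Both ferritin genes have processed copies in the mouse genome, and reads shared with them may have been split or lost in counting; the copy Ftl1-ps2 held 59 to 126 counts per library.

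Iron export and uptake leaned the other way in their values, with wide intervals. Slc40a1 (ferroportin, NCBI gene 53945) stood at 161, 102 and 127 CPM with curcumol and at 110 and 57.5 CPM without. The groups overlapped, and the difference of 0.45 ± 0.35 (95% interval -0.39 to 1.28, adjusted p = 0.5) rested on single libraries: it was 1.02 without untreated replicate 1, 0.06 without untreated replicate 2 and 0.24 without curcumol replicate 1. Tfrc, the transferrin receptor with the elements behind its coding sequence, was scarce and stood at 11.1, 16.1 and 15.8 CPM with curcumol and at 8.33 and 4.15 CPM without. Its groups did not overlap. The log2 fold change of 1.0 ± 0.48 did not pass (95% interval -0.15 to 2.15, adjusted p = 0.257); it passed without untreated replicate 1 alone (1.62, adjusted p = 0.0217) and was 0.59 without untreated replicate 2.

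The phagosomal and endosomal metal transporters gave no separation. Slc11a1 stood at 529, 547 and 390 CPM with curcumol and at 562 and 530 CPM without (-0.35 ± 0.20, adjusted p = 0.352), with curcumol replicate 3 apart from the other 4 libraries. Slc11a2 stood at 36.8, 27.6 and 44.3 CPM with curcumol and at 40.7 and 23.1 CPM without (-0.01 ± 0.34, 95% interval -0.83 to 0.81, adjusted p = 0.992). That interval is wide and includes differences in both directions.

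Ratios between members inside a library do not depend on the scaling between libraries. The 6 ratios were tested with an exact two-sided permutation test of the log2 ratio, whose smallest possible p is 0.1 with 3 and 2 samples, so none could pass 0.05. Hmox1 over Slc40a1, heme breakdown against iron export per kilobase, was 8.44, 15.6 and 14.6 with curcumol and 28.4 and 40.5 without. The groups were apart, with a log2 difference of -1.45 (exact permutation p = 0.1). With the median length of coding transcripts this ratio was 1.08, 1.99 and 1.86 with curcumol and 3.62 and 5.16 without. The size of each ratio thus depends on the length used, but its log2 difference does not. Tfrc over Fth1, uptake against storage, was 0.000398, 0.000494 and 0.000398 with curcumol and 0.000194 and 0.000111 without, apart in the other direction (log2 difference 1.54, exact permutation p = 0.1). Slc40a1 over Fth1 was 0.00840, 0.00451 and 0.00463 with curcumol and 0.00371 and 0.00224 without (0.96, exact permutation p = 0.1), and Blvrb over Blvra was 1.18, 1.28 and 1.21 with curcumol and 1.06 and 0.601 without (0.61, exact permutation p = 0.1). These 2 were apart too, and Slc40a1 over Fth1 narrowed to 0.59 without untreated replicate 2 and Blvrb over Blvra to 0.20. The heavy chain over the light chain of ferritin was 0.304, 0.371 and 0.324 with curcumol and 0.313 and 0.261 without, so the groups overlapped (0.22, exact permutation p = 0.3). Slc11a1 over Slc11a2 overlapped as well, at 27.4, 37.8 and 16.8 with curcumol and 26.3 and 43.8 without (-0.39, exact permutation p = 0.5).

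**Figure D3:**
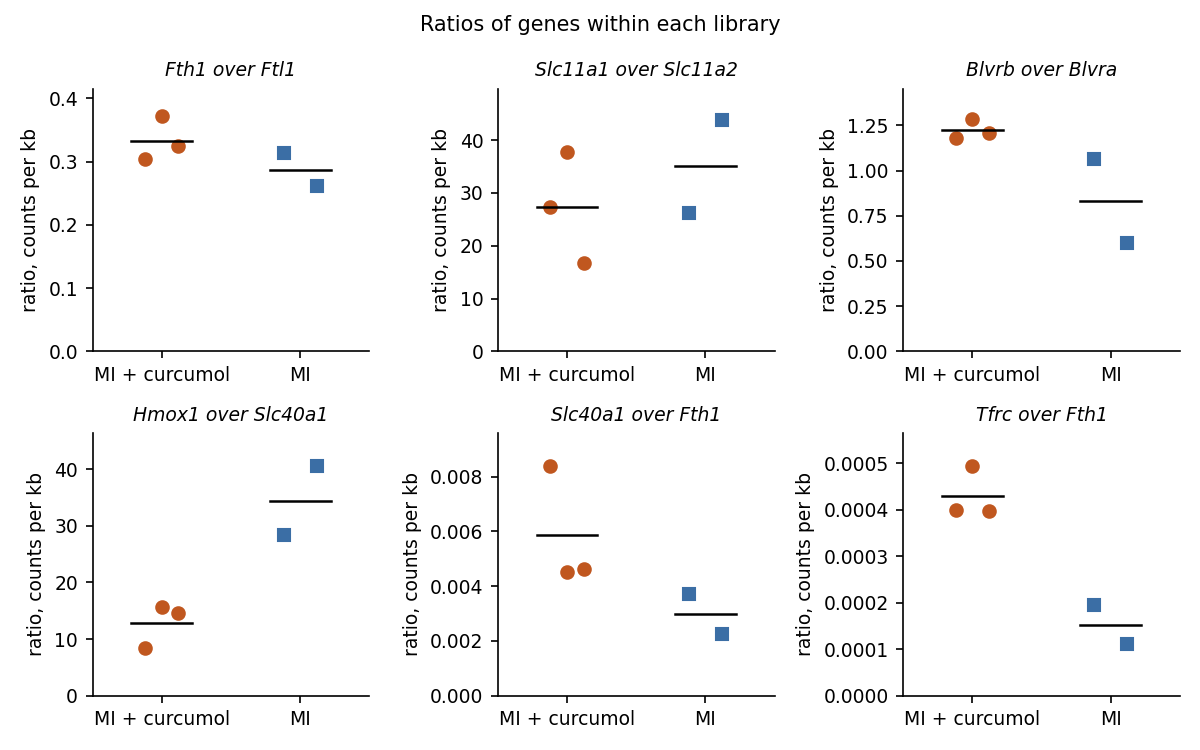
Ratio of counts per kilobase between pairs of genes in each library; circles are curcumol libraries, squares untreated ones and bars group means, each axis starting at 0. Hmox1 over Slc40a1 lies between 8.44 and 15.6 with curcumol and at 28.4 and 40.5 without, and the heavy over light ferritin ratio overlaps.

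Beyond these genes, 117 others of heme and iron biology were listed in 8 groups; 112 were in the table and 103 were tested. Under the main edgeR test none had an adjusted p below 0.05, while 10 higher and 13 lower had an unadjusted p under 0.05; DESeq2 called 16, of which 9 were higher, and limma-voom 6. The shares were 22.3%, 15.4% and 5.83% of these genes, against 24.6%, 16.8% and 11.4% of all genes under the same 3 rules. Their median log2 fold change was -0.12, with 33 positive and 70 negative.

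Of the 9 tested genes of heme uptake and transport 6 were positive and 3 negative, with 4 separated higher and none lower, and none passed; over all tested genes 45.9% were separated. Their median was 0.23, but 0.05 without untreated replicate 1 and 0.72 without untreated replicate 2. The 3 with the smallest p follow. Cd163, the scavenger receptor for hemoglobin bound to haptoglobin, stood at 195, 320 and 84.2 CPM with curcumol and at 35.6 and 27.8 CPM without. All curcumol libraries lay above both untreated ones, replicate 2 furthest (log2 fold change 2.46 ± 0.56, adjusted p = 0.0689; range over the alternatives 7.69e-05 to 0.111). Lrp1, a receptor for heme carried by hemopexin among many other ligands, stood at 239, 407 and 482 CPM with curcumol and at 184 and 179 CPM without (0.85 ± 0.29, adjusted p = 0.127). Hp, which encodes haptoglobin, stood at 233, 135 and 247 CPM with curcumol and at 110 and 70.4 CPM without (0.995 ± 0.34, adjusted p = 0.133). DESeq2 called all 3 of them.

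Cd163 is also a marker of resident cardiac macrophages. The list of 12 such markers, Cd163 among them, was positive for all 12, and its summed level was 6013, 4943 and 3045 CPM with curcumol and 1923 and 1775 CPM without. Its most abundant marker, the transglutaminase F13a1, stood at 895 to 1706 CPM with curcumol and at 579 and 465 CPM without. The part of these markers in the Cd163 values was not tested. Hp is also on a list of 11 markers of recruited monocytes, of which 4 were positive and 7 negative. The part of such cells in the Hp values was not tested.

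Markers of cells outside the gate also had higher sums with curcumol. The 10 fibroblast markers summed to 139, 178 and 389 CPM with curcumol and to 34.3 and 28.7 CPM without. Of these 9 were positive and 2 passed, Dcn and Lum (adjusted p = 0.0464 each), calls lost without curcumol replicate 2. Without curcumol replicate 1 only 1 of all tested genes passed. Dcn, the most abundant of them, stood at 67.4, 56.3 and 89.4 CPM with curcumol and at 12.5 and 11.4 CPM without. All 10 endothelial markers were positive and summed to 64.3, 117 and 87.5 CPM with curcumol and to 26.1 and 31.5 CPM without. All 8 tested cardiomyocyte markers were positive too, with sums of 112, 136 and 136 CPM with curcumol and 26.3 and 58.5 CPM without, as were all 6 tested B-cell markers, with sums of 125, 91.4 and 127 CPM with curcumol and 62.6 and 49.5 CPM without. Of these markers 5 endothelial, 3 fibroblast (Lum among them) and 1 B-cell had no count in either untreated library, so they could only be positive. Over all tested genes 57.1% were positive. The part of cells outside the gate in the Lrp1 values, and in those of Steap4, Cp and Bmp6 given below, was not tested.

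Of 10 tested genes of iron uptake and reduction 6 were positive and none passed. Their median was 0.43, but 0.06 without curcumol replicate 1 and 0.84 without untreated replicate 1. The 3 with the smallest p were Ltf, Lcn2 and Steap4, each separated higher with curcumol. Ltf, lactoferrin, stood at 316, 112 and 100 CPM with curcumol and at 3.02 and 0.0240 CPM without, the second being a single count (adjusted p = 0.0665). Lcn2, lipocalin 2, which binds the siderophores of bacteria, stood at 110, 46.4 and 81.8 CPM with curcumol and at 2.29 and 5.33 CPM without (4.21 ± 0.57, adjusted p = 0.0555). Steap4, a metalloreductase, stood at 24.0, 9.68 and 10.4 CPM with curcumol and had no count in either untreated library, at least 208-fold higher if each untreated library is set to 3 counts (adjusted p = 0.0523). DESeq2 called all 3, with adjusted p from 9.92e-14 to 0.00267. Of 14 neutrophil markers 13 were positive and 2 passed, against 57.1% positive and 0.0689% called higher over all tested genes. Camp stood at 35.5 to 61.6 CPM with curcumol and had no count without (adjusted p = 0.0156). Ngp stood at 273 to 641 CPM with curcumol and at 0.0923 and 0.0480 CPM without (0.0147). Both calls were lost without curcumol replicate 2, where no gene passed. Camp and Ly6g had no count in either untreated library, so they could only be positive. The summed neutrophil level, led by S100a8, was 3692, 1784 and 3406 CPM with curcumol and 671 and 542 CPM without. Its part in the Hp, Ltf, Lcn2 and Steap4 values was not tested. Among the curcumol libraries the neutrophil sum was lowest in replicate 2, as was Lcn2, while Ltf was lowest in replicate 3.

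Heme synthesis genes had a median of -0.17 over 11, with 8 negative; it was -0.33 without untreated replicate 1 and -0.32 without untreated replicate 2. Uros, which closes the porphyrin ring, stood at 10.1, 11.9 and 7.87 CPM with curcumol and at 21.6 and 18.3 CPM without (-1.19 ± 0.34, adjusted p = 0.0870), and DESeq2 called it. Alas1, the first enzyme of the pathway, stood at 115 to 162 CPM with curcumol and at 163 and 171 CPM without (adjusted p = 0.223). Mitochondrial iron and iron-sulfur genes had a median of -0.16 over 25, with 21 negative, and -0.28 without untreated replicate 1; the scaffold Iscu stood at 138 to 191 CPM with curcumol and at 188 and 199 CPM without (adjusted p = 0.179). Ciapin1 (adjusted p = 0.183) and Isca2 (0.228) were also below 0. With total counts the medians of both lists were above 0, at 0.02 and 0.03, so their direction is not fixed by these data.

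**Figure D4:**
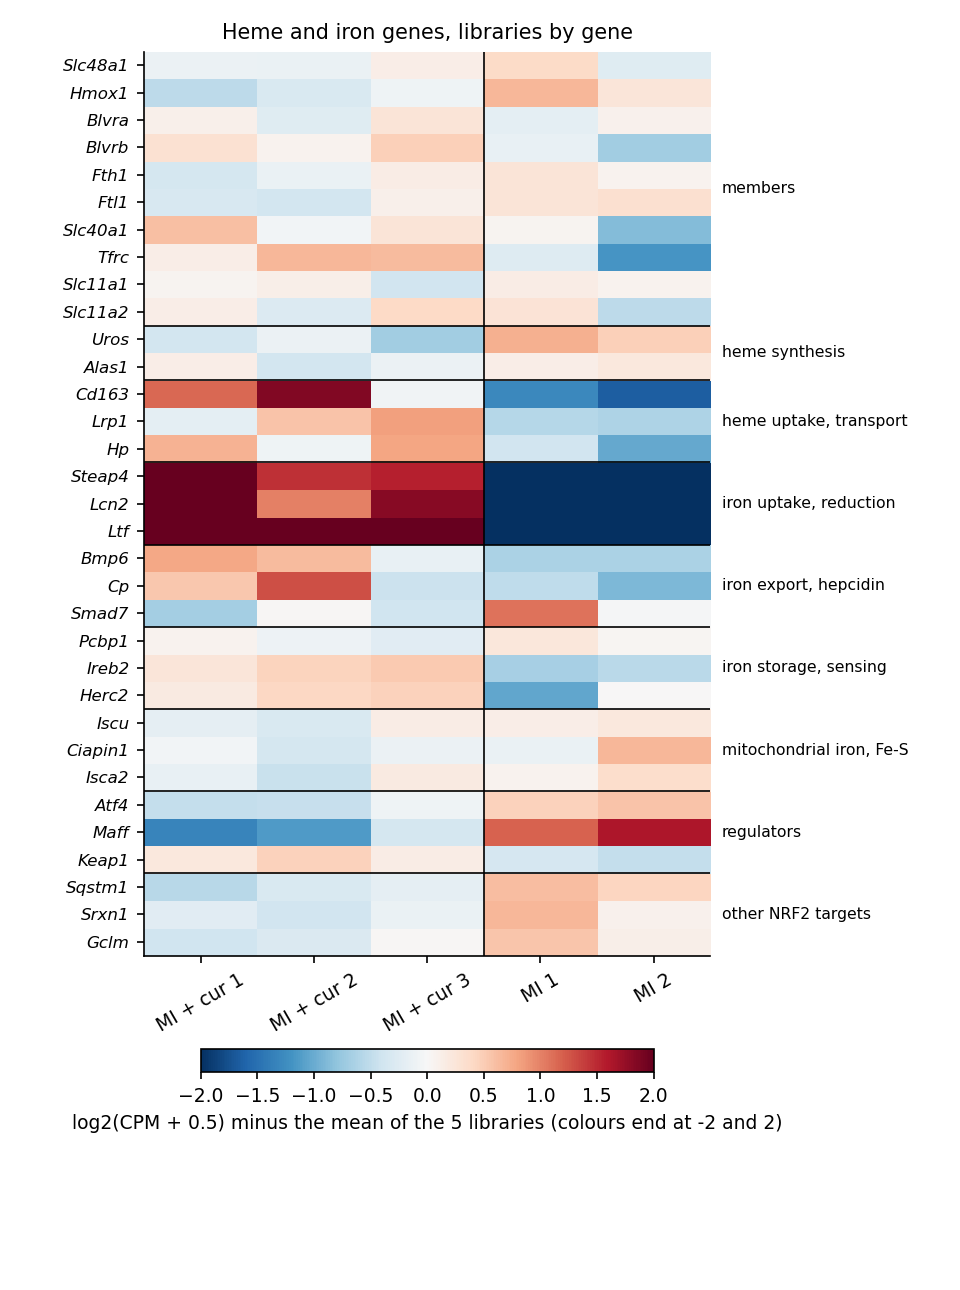
Colour gives log2(CPM + 0.5) of each gene minus its mean over the 5 libraries, red above and blue below, for the 10 members and up to 3 genes with the smallest p in each of 8 lists; curcumol libraries are the left 3 columns. Steap4, Lcn2 and Ltf show the widest contrast, and none of these genes passed the adjusted test.

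Storage and sensing genes centred near 0, with a median of -0.05 over 9 tested (0.13 with total counts and 0.20 without untreated replicate 1). Ireb2, the iron regulatory protein IRP2 that binds the hairpins above, stood at 10.2, 11.8 and 12.6 CPM with curcumol and at 5.24 and 5.78 CPM without. Its groups did not overlap (0.88 ± 0.42, adjusted p = 0.257), and DESeq2 called it (0.0277). Aco1, the other iron regulatory protein, stood at 57.6, 61.1 and 52.0 CPM with curcumol and at 72.9 and 35.4 CPM without, which overlap. Fbxl5, which targets IRP2 for breakdown when iron is plentiful, stood at 150 to 173 CPM with curcumol and at 142 and 150 CPM without (-0.05 ± 0.16), and Ncoa4, the receptor that delivers ferritin to autophagy, at 110 to 117 CPM and at 99.0 and 78.5 CPM (0.16 ± 0.18). Pcbp1, a chaperone that loads iron into ferritin, stood at 213 to 261 CPM with curcumol and at 292 and 258 CPM without (adjusted p = 0.211), and Herc2, a ubiquitin ligase, at 18.2 to 22.2 CPM and at 7.53 and 16.1 CPM (0.391). Aco1, Fbxl5 and Ncoa4 are given for their roles and were chosen after their values were seen, as was Hmox2.

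Export partners and hepcidin signalling were mostly scarce: 6 of 12 listed genes were tested. Their median of 0.63 was 0.12 without curcumol replicate 1, 0.16 without curcumol replicate 2, 0.12 with the CPM filter and 1.03 with the replicate block. Bmp6, given below, lacked untreated counts, so its difference could only be positive. It was tested in the main and block fits but not in the other settings just named. Their lower medians thus come with its removal. Among the other tested genes of this list the middle value in the main fit was that of Hfe, 0.136. Hamp, which encodes hepcidin, the peptide that removes ferroportin from the membrane, had at most 0.101 CPM in any library and no count in the untreated ones, where a count of 0 allows up to 0.0693 and 0.0720 CPM. Cp, ceruloplasmin, which oxidises iron as ferroportin releases it, stood at 21.99, 37.02 and 10.96 CPM with curcumol and at 10.4 and 7.80 CPM without (1.16 ± 0.54, adjusted p = 0.250). Bmp6, a signal for hepcidin in liver, stood at 0.201 to 0.828 CPM with curcumol and had no count without, at least 8.18-fold higher with the same 3 counts (adjusted p = 0.0799). Smad7, an inhibitor of that signal, stood at 0.998 to 1.92 CPM with curcumol and at 4.59 and 1.85 CPM without (adjusted p = 0.359).

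Of 13 regulators of heme and iron genes 11 were negative and 2 positive, and none passed. Their median was -0.31, but -0.09 without untreated replicate 2 and -0.13 with total counts. Bach1, the repressor that heme inactivates, stood at 30.5, 20.9 and 37.4 CPM with curcumol and at 27.0 and 37.8 CPM without, and Nfe2l2, the activator NRF2, at 266, 240 and 190 CPM with curcumol and at 390 and 248 CPM without (-0.65 ± 0.26, adjusted p = 0.194). Both overlapped between groups. Maff, a small Maf partner of these factors, stood at 1.63, 1.95 and 3.70 CPM with curcumol and at 11.6 and 15.9 CPM without, which is apart (-2.69 ± 0.56, adjusted p = 0.0659). Atf4, of the amino acid and stress response, stood at 78.8, 80.2 and 104 CPM with curcumol and at 151 and 164 CPM without (adjusted p = 0.0637), and Keap1, which marks NRF2 for breakdown, at 67.7 to 83.8 CPM and at 48.0 and 43.7 CPM (0.156). Bach1 and Nfe2l2 were named after their values were seen.

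Other targets of NRF2 had a median of -0.26 over 20, with 16 negative and none past the test. It was -0.03 without untreated replicate 1, -0.40 without untreated replicate 2 and -0.07 with total counts. Sqstm1, an autophagy receptor, stood at 522, 618 and 672 CPM with curcumol and at 1173 and 1028 CPM without (-1.06 ± 0.17, adjusted p = 0.0637). Srxn1, which repairs oxidised peroxiredoxins, stood at 60.2 to 71.8 CPM with curcumol and at 126 and 83.7 CPM without (0.0806), and Gclm, a subunit of the first glutathione enzyme, at 70.1 to 93.7 CPM and at 136 and 101 CPM (0.0845). All 3 were apart between groups and called by DESeq2. Hmox1 was thus not the only gene of this kind with lower values, and whether it differed from them was not tested.

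Hemoglobin transcripts and genes of the dissociation response are given here beside Hmox1 and ferritin. The 4 globin genes summed to 17.7, 13.6 and 26.7 CPM with curcumol and to 34.2 and 75.3 CPM without, so every curcumol library was below both untreated ones, as for Hmox1. Within the untreated pair the order differed: replicate 2 held more globin and less Hmox1 than replicate 1. Hba-a1, the highest of them, which is uncertain because Hba-a2 is nearly the same in sequence, stood at 6.76 to 12.5 CPM with curcumol and at 17.5 and 39.5 CPM without (adjusted p = 0.0808). The whole erythroid list, 9 of 14 genes in the table, summed to 14.98 to 28.4 CPM with curcumol and to 37.5 and 75.4 CPM without. Alas2, the heme enzyme of red cell precursors, was at 0 in both untreated libraries and at 0.195 to 1.05 CPM with curcumol. Of 22 genes that tissue dissociation is known to induce, 21 were negative and 1 passed, Hspa1a (adjusted p = 0.0464). That call was lost without curcumol replicate 2, where no gene passed. Of all tested genes 0.138% were called lower. Of the 22 genes 17 were separated lower, against 9.31% of all tested genes. In the edgeR fit 14 of them were lower with an unadjusted p under 0.05, against 6.51%. The dissociation list, led by Fos, summed to 13345 to 22727 CPM with curcumol and to 38037 and 40706 CPM without. The part of red cell material or of the dissociation response in the Hmox1, Ftl1 and Fth1 values was not tested.

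**Figure D5:**
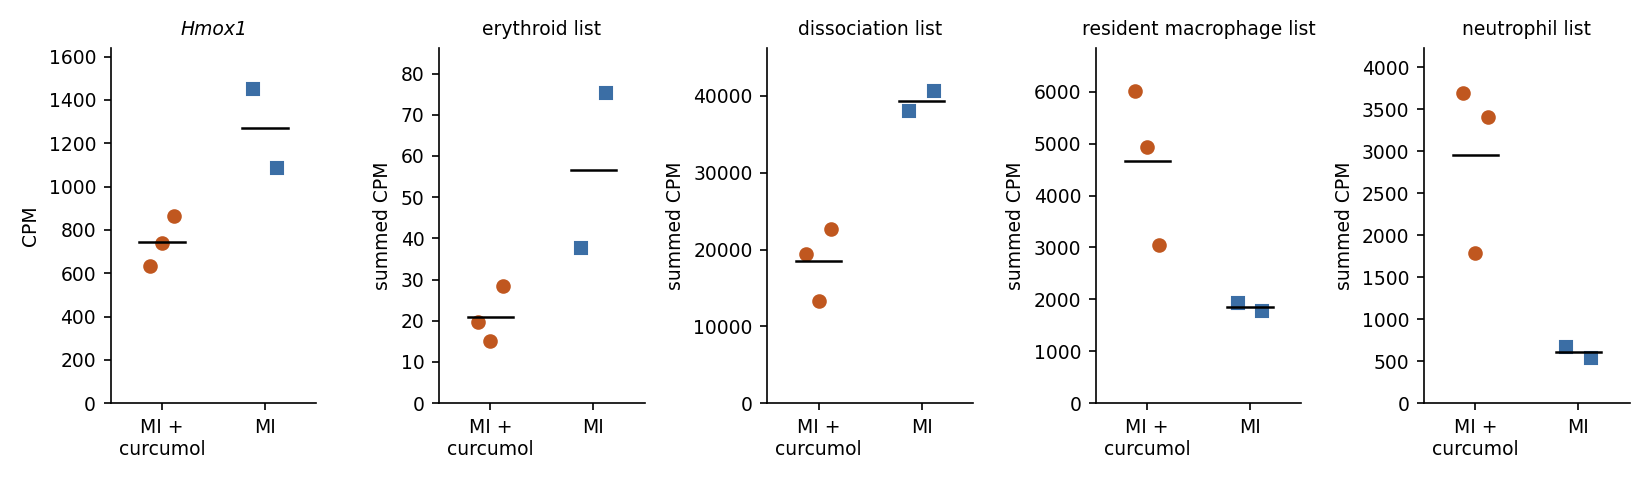
Hmox1 in CPM and the summed CPM of 4 marker lists in each library; circles are curcumol libraries, squares untreated ones and bars group means, each axis starting at 0. The erythroid and dissociation lists are below both untreated libraries with curcumol, as Hmox1 is, while the resident macrophage and neutrophil lists are above.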

How the data were processed

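RNA was sequenced from sorted cardiac macrophages, 3 samples with and 2 without curcumol; columns were tied to samples by title. The authors deposited whole-number counts per gene without normalization, made with fastp, HISAT2, HTSeq and Bowtie2 per the submitters' processing notes, which give no versions. The sources used here name no build or annotation. Per the labels' protocols the kit was VAHTS Universal V6, while the series' design text names a stranded TruSeq kit, so strandedness is open and no antisense gene is named.

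Counts were fitted in edgeR 4.0.16 (R 4.3.3; TMM, filterByExpr with a minimum count of 10, group as the only term, 3 residual degrees of freedom, two-sided, Benjamini-Hochberg over 14508 genes, threshold 0.05), and the fit was tested on simulated data with known changes. The simulated libraries varied less than these, so that check does not show how the fit behaves at the spread seen here. Each SE was derived from the log2 fold change and its F value. DESeq2 1.42.0, limma-voom (limma 3.58.1), other scalings and filters, a replicate block and leaving out each library were alternatives. Totals were 39768705 to 43315822 counts. All library pairs differed beyond sampling noise (chi-square per gene 97.6 or more). Lengths and hairpins came from GENCODE M21.

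Members and lists were chosen with earlier results of these data known, so their counts and medians carry no test. Besides the 10 members, named genes were the 3 with the smallest p in each list, leading markers, and the nearest profiles to Hmox1 and Slc40a1; exceptions are stated, and 1 gene under this rule is not reported here.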

Additional observations from a re-analysis of the deposited data

How the results depend on the processing

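The number of genes past the threshold moved widely: 10 with total counts, 98 with a CPM of at least 1 in 2 libraries, 416 with no filter on low counts, 1661 with limma-voom and 2653 with DESeq2, against 30, and 0 to 3531 when 1 library was left out. For the 10 heme and iron genes it was 2 with DESeq2, 2 with limma-voom and 0 to 1 with 1 library left out, the calls being Tfrc without untreated replicate 1 and Hmox1 without untreated replicate 2. For the other heme and iron genes it was 16 with DESeq2, 6 with limma-voom, 6 with no filter, 2 with the CPM filter and 0 to 20 with 1 library left out. The members' median was -0.0159 with total counts. Of the 10 members 7 kept their sign in all 12 alternatives, and 29 of 30 other named genes did in those that tested them. Blvra turned to 0.11 with total counts, 0.0672 without curcumol replicate 2 and 0.0699 without untreated replicate 2, and without untreated replicate 1 it was -0.187. Slc11a2 turned to 0.18 with total counts, 0.0224 with limma-voom, 0.166 without curcumol replicate 2 and 0.489 without untreated replicate 1, and was -0.354 without untreated replicate 2. Slc48a1 turned to 0.0411 without untreated replicate 1 and was -0.609 without untreated replicate 2. Eno3 turned to -0.0326 without untreated replicate 2 and was 1.07 without untreated replicate 1. The cause was not tested for any of these. The 6 ratios kept their direction with each library left out, which could not be otherwise for those with separated groups. Slc11a1 over Slc11a2, which overlapped, fell to a log2 difference of -0.0222 without untreated replicate 2. A fit without 1 untreated library assumes that the lone library varies like the curcumol ones.

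The labels do not say that equal replicate numbers pair samples, and only numbers 1 and 2 occur in both groups. Deviations of same-numbered libraries from their group means correlated across genes at 0.0361 and -0.00815. With the replicate number as a block 45 genes passed, none of the members and none of the other heme and iron genes. In that fit curcumol replicate 3 has no untreated partner and does not enter the difference. Fewer residual degrees of freedom are left than in the main fit.

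Of the members Tfrc had the fewest counts, 173 or more in each library.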

Other observations

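Genes whose profile over the 5 libraries lay nearest to that of a member were looked up by the root mean square difference of log2(CPM + 0.5), each gene centred on its own mean. Nearest to Hmox1 were Errfi1, a feedback inhibitor of the EGF receptor, at a difference of 0.0509, Gla, the lysosomal alpha-galactosidase, at 0.0737, and the noncoding RNA Particl at 0.0781. Errfi1 stood at 25.2, 28.7 and 32.3 CPM with curcumol and at 52.5 and 40.9 CPM without. Gla stood at 56.0, 76.1 and 81.5 CPM with curcumol and at 133 and 105 CPM without. Neither passed the test (adjusted p = 0.0759 and 0.0700). Nearest to Slc40a1 were Armc2 at 0.0681, Eno3, the muscle enolase, at 0.0868 and Sympk, a scaffold of messenger RNA 3′ end processing, at 0.0970. Eno3 stood at 18.1, 13.4 and 16.0 CPM with curcumol and at 14.3 and 6.74 CPM without, the same order of libraries as Slc40a1. Armc2 was below 1 CPM in every library and had no count in untreated replicate 2, so its distance depends on the added 0.5. With 5 libraries many genes share an order, so likeness here is a description.

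Uptake genes outside the members showed their own spread. Steap3, the reductase of transferrin endosomes, stood at 52.3, 49.2 and 31.1 CPM with curcumol and at 42.1 and 30.9 CPM without, and Slc39a14, a transporter of iron not bound to transferrin, at 13.2, 11.5 and 11.8 CPM with curcumol and at 6.14 and 16.6 CPM without. Mcoln1, a channel that releases iron from lysosomes, stood at 82.7, 72.5 and 78.8 CPM with curcumol and at 60.0 and 90.2 CPM without. The groups overlapped for all 3, which were chosen after their values were seen.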
